A study of Neurospora crassa with 24 samples.

Results

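A set of 7 photoreceptor genes of Neurospora crassa was examined, out of 9758 genes with a read count: *wc-1* (NCU02356), *wc-2* (NCU00902), *vvd* (NCU03967), *cry* (NCU00582), *nop-1* (NCU10055), *phy-1* (NCU04834) and *phy-2* (NCU05790). The set counts *wc-2* among the receptor genes, although its protein is the partner of the receptor WC-1. The genes were listed by identifier, without a cut on measured values, but with earlier results of these data known. The study used RNA-seq of polyadenylated RNA to compare the Δ*ve-1* mutant, which lacks a velvet protein that regulates conidiation and the response to light, with the wild type, both in the OR74A background. Vegetative mycelia grown for 48 h in liquid medium in plates (V) stayed in the dark or received 30 min of white light before harvest, with 2 libraries per strain and light condition. Aerial tissue collected 15 h after transfer to solid medium (A15) stayed in the dark or received the same 30 min of light before harvest, again with 2 libraries per group. Submerged mycelia from shaken liquid cultures of 24 h, never exposed to light (S), were represented by 4 libraries per strain. The labels give 22°C for all cultures, whereas the methods of the study state a warmer temperature for S and A15 than for V. The V cultures and the A15 cultures therefore differed in tissue, age, medium and possibly temperature, and these cannot be told apart.

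Fungi sense light with several families of proteins. WC-1 is a blue-light receptor with a flavin-binding LOV domain and is also a GATA transcription factor, and it acts with WC-2, a second GATA factor, as the White Collar complex (WCC), which activates transcription in light and drives the circadian clock. VVD is a small LOV protein that binds the WCC and damps its activity in continued light. CRY is a cryptochrome of the DASH type, NOP-1 is an opsin that binds retinal, and PHY-1 and PHY-2 are phytochromes, red-light receptors that are hybrid histidine kinases.

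On the NC12 assembly, *wc-1* lies on linkage group VII from 2767393 to 2773846 on the plus strand, *nop-1* on VII from 1316548 to 1318623 on the minus strand and *phy-2* on VII from 3833572 to 3837393 on the minus strand. The *wc-2* gene lies on linkage group I from 6815517 to 6819124 on the minus strand and *cry* on I from 7931586 to 7935778 on the plus strand. The *vvd* gene lies on linkage group VI from 2268533 to 2271812 on the minus strand and *phy-1* on VI from 994869 to 1001345 on the plus strand. These are whole gene spans. Of the 7 genes, only *cry* overlaps another counted gene, NCU00583, by 681 bases on the opposite strand. NCU00583 had between 0 and 16 reads per library, and the authors counted reads with strand specificity.

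Library totals ranged from 14010994 to 21885041 counts (median 16040218.5). The strain labels were checked with *ve-1*, which had between 0.785 and 17.3 CPM (the count scaled to the size of the library) in Δ*ve-1* libraries and between 69.3 and 220 CPM in wild-type libraries. The value of 17.3 CPM (215 counts) came from Δ*ve-1* S replicate 1, and the other mutant S libraries had between 1.28 and 3.18 CPM. The summed level of 6 markers of conidiating tissue (*eas*, *con-6*, *con-8*, *con-10*, *acon-3*, *csp-2*) ranged from 36189 to 177963 CPM in A15, against 127 to 641 CPM in S and 75.5 to 2049 CPM in V, and no marker was at 0 in any library. In A15 the sum was between 96164 and 177963 CPM in Δ*ve-1* and between 36189 and 94214 CPM in the wild type. Its part in the A15 results was not tested. Levels are in CPM after scaling the 24 libraries together by the TMM method, and fold changes come from fits within each experiment. A gene was called at a Benjamini-Hochberg adjusted p under 0.05 in the quasi-likelihood test of edgeR, over all genes tested in the fit. All 7 genes passed the filter on low counts in every fit. In V, *phy-2* passed it only through wild-type libraries (9 to 13 reads, against 2 to 9 in Δ*ve-1*). In the fit of S with A15 it passed through A15 libraries. In tissue samples, fewer cells of a type and less RNA per cell cannot be told apart.

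**Figure D1:**
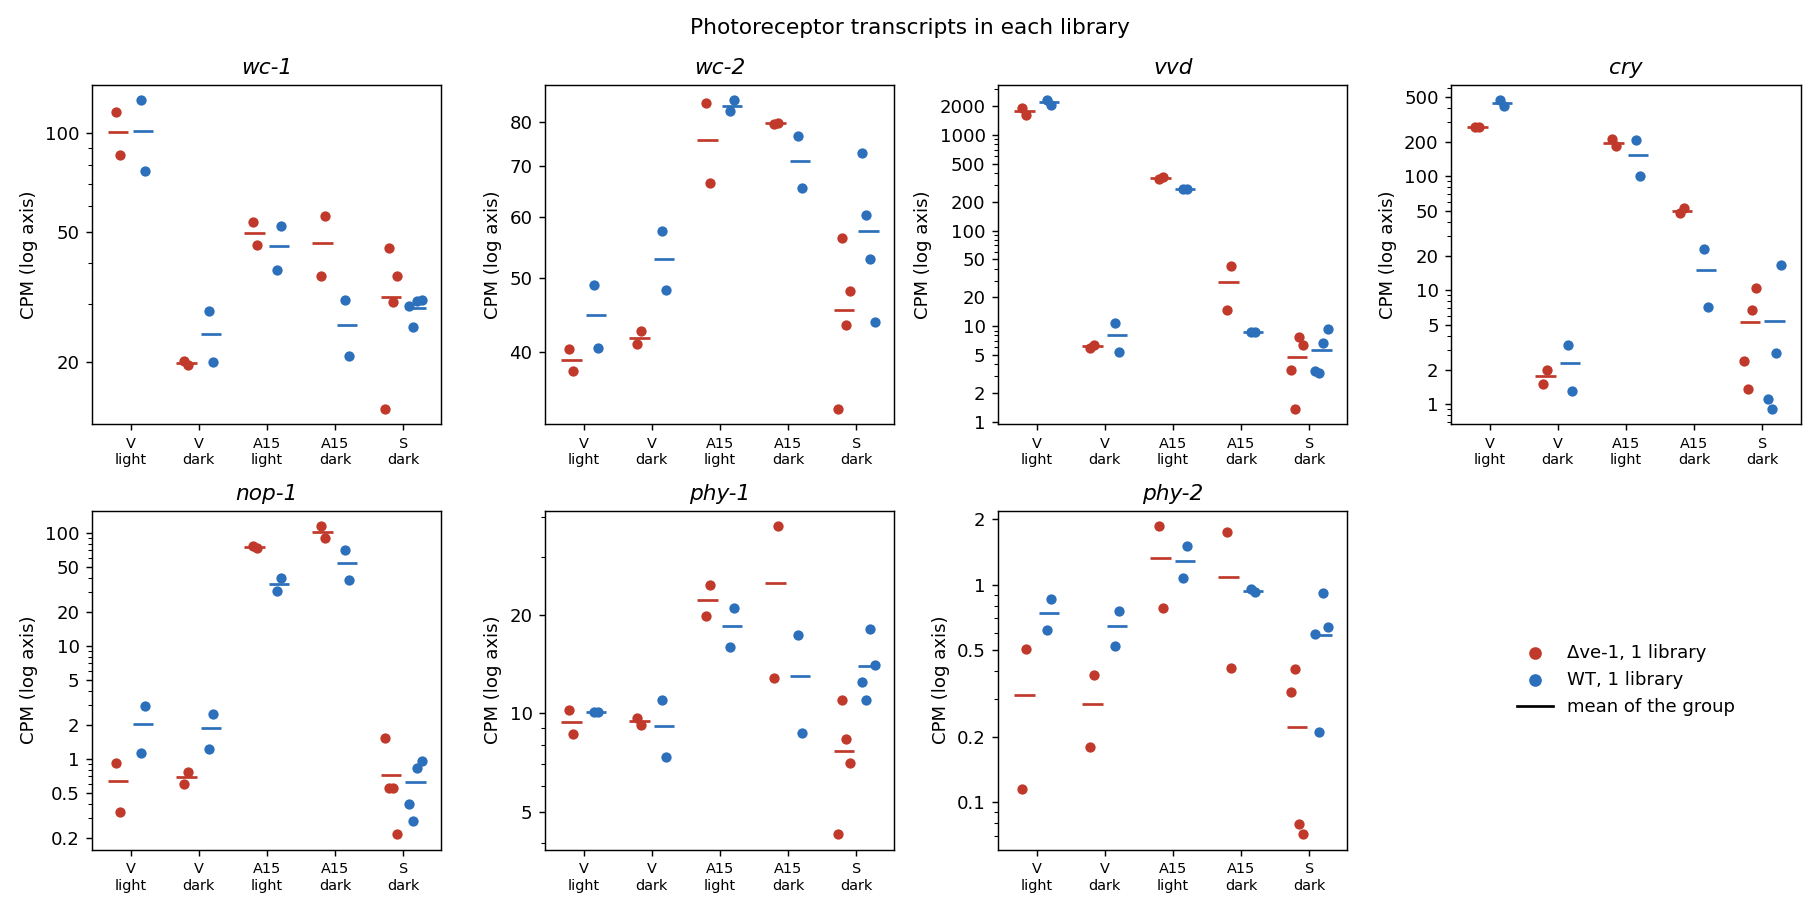
CPM of each of the 7 genes on a log axis, with 1 point per library, Δ*ve-1* (red) left of the wild type (blue), and a line at the group mean, for V light, V dark, A15 light, A15 dark and S dark. *vvd* and *cry* separate light from dark, *nop-1* separates A15 (30.7 to 115 CPM) from V and S (0.214 to 2.91 CPM), and *phy-2* lies below 2 CPM in every library.

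The first question was how 30 min of light changed the receptors in vegetative mycelia. The transcripts of *vvd*, *cry* and *wc-1* rose in both strains, and those of *wc-2*, *nop-1*, *phy-1* and *phy-2* did not pass the test in either. The 3 calls among 7 genes in each strain compare with 12.8% of the 7760 genes tested in Δ*ve-1* and 15.4% in the wild type. The median log2 fold change of the 7 genes was 0.11 in Δ*ve-1* and 0.20 in the wild type, and the same median over all genes tested was 0.00 in Δ*ve-1* and -0.01 in the wild type.

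The *vvd* transcript had 1904 and 1633 CPM in the light and 5.95 and 6.38 CPM in the dark in Δ*ve-1* mycelia. The wild-type mycelia had 2309 and 2087 CPM in the light and 10.9 and 5.33 CPM in the dark. Every light library was far above every dark library. The log2 fold change was 8.17 ± 0.34 in Δ*ve-1* (SE, edgeR adjusted p = 2.18e-06), a 289-fold rise, and 8.06 ± 0.34 in the wild type (adjusted p = 2.11e-06), a 267-fold rise.

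The *cry* transcript had 269 and 272 CPM in the light and 1.5 and 2.01 CPM in the dark in Δ*ve-1* mycelia. The wild type had 463 and 412 CPM in the light and 3.32 and 1.31 CPM in the dark. Light and dark libraries did not overlap, and in the light both mutant libraries were below both wild-type libraries. The rise was 153-fold in Δ*ve-1* (log2 fold change 7.26 ± 0.32, SE, edgeR adjusted p = 2.45e-06) and 183-fold in the wild type (7.52 ± 0.32, adjusted p = 2.11e-06).

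The *wc-1* transcript had 116 and 85.7 CPM in the light and 20.1 and 19.6 CPM in the dark in Δ*ve-1* mycelia. Wild-type mycelia had 126 and 76.8 CPM in the light and 28.6 and 20 CPM in the dark. The groups did not overlap in either strain, although replicate 1 was above replicate 2 in each of the 4 groups. The rise was 5.12-fold in Δ*ve-1* (log2 fold change 2.36 ± 0.27, SE, edgeR adjusted p = 0.000594) and 4.14-fold in the wild type (2.05 ± 0.26, adjusted p = 0.000992). The wild-type values of both *wc-1* groups were the more spread, with SDs of 34.8 CPM in the light and 6.11 CPM in the dark (n = 2 each).

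The partner gene *wc-2* had between 37.8 and 48.9 CPM in light V mycelia of both strains and between 40.9 and 57.5 CPM in dark V mycelia. The log2 fold changes of *wc-2*, *nop-1*, *phy-1* and *phy-2* with light in V lay between -0.25 and 0.20 over both strains, and their smallest adjusted p was 0.29. For *phy-1* the SE was 0.20 in each strain, whereas the SEs of *nop-1* and *phy-2* were between 0.54 and 0.74 and these genes had between 2 and 44 reads per V library.

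The response of no receptor gene differed between the strains by the test of the difference. The log2 difference between the mutant and the wild-type response in V was 0.11 ± 0.38 for *vvd*, -0.26 ± 0.43 for *cry* and 0.31 ± 0.36 for *wc-1* (SE, edgeR adjusted p = 1 for each). The 7 differences ranged from -0.26 to 0.31. None of the 7760 genes passed (0%), 189 of them had an unadjusted p under 0.05, none of the 7 was among these, and DESeq2 on the same libraries called 2 genes, none of them a receptor gene.

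Of 16 known targets of the WCC and early light genes, 15 rose in Δ*ve-1* and 14 in the wild type, and none fell. Over all 7760 genes tested, 549 rose and 445 fell in Δ*ve-1*, and 619 rose and 574 fell in the wild type. Their median log2 fold change was 4.79 in Δ*ve-1* and 4.95 in the wild type. In Δ*ve-1* the largest changes were those of *al-1* (8.30 ± 0.60), for phytoene dehydrogenase of carotenoid synthesis, the conidiation gene *con-6* (8.06 ± 0.60) and the blue-light-induced gene *bli-4* (7.83 ± 0.63). In the wild type they were *bli-4* (10.42 ± 0.70), *con-6* (8.78 ± 0.62) and *al-1* (8.43 ± 0.60). Of 11 partners, kinases and phosphatases of the WCC, 1 rose in each strain, *pkac-1*, a catalytic subunit of protein kinase A, with log2 fold changes of 0.43 ± 0.11 in Δ*ve-1* and 0.59 ± 0.11 in the wild type. Of 9 genes of the two-component phosphorelay, the pathway type to which the phytochromes belong as histidine kinases, 5 rose in Δ*ve-1* and 6 in the wild type. The first 3 by size were *dcc-1*, for a histidine kinase (2.17 ± 0.13 in Δ*ve-1* and 2.66 ± 0.13 in the wild type), *os-4*, for a MAP kinase kinase kinase (1.52 ± 0.14 in Δ*ve-1* and 1.66 ± 0.15 in the wild type), and *os-2*, for the MAP kinase of the same cascade (1.40 ± 0.15 in Δ*ve-1* and 1.23 ± 0.15 in the wild type). The lists were drawn up with earlier results of these data known.

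In aerial tissue, light was given for the same 30 min, and no receptor gene passed the edgeR test. None of the 8193 genes tested passed in either strain (0% in Δ*ve-1* and 0% in the wild type). At an unadjusted p under 0.05 there were 1004 genes in Δ*ve-1* and 759 in the wild type, with 2 receptor genes, *vvd* and *cry*, in each. DESeq2 on the same libraries called 273 genes in Δ*ve-1* and 217 in the wild type, and *vvd* and *cry* were called in both.

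The *vvd* transcript had 350 and 364 CPM in the light and 14.7 and 42.7 CPM in the dark in Δ*ve-1* A15. Wild-type A15 had 270 and 271 CPM in the light and 8.74 and 8.73 CPM in the dark. All light libraries were above all dark libraries. The log2 fold change was 3.59 ± 0.52 in Δ*ve-1* (SE, edgeR adjusted p = 0.129, DESeq2 adjusted p = 3.64e-09) and 4.96 ± 0.55 in the wild type (edgeR 0.0614, DESeq2 4.78e-19). Over the alternatives run, the edgeR and DESeq2 adjusted p of *vvd* ranged from 3.64e-09 to 0.767 in Δ*ve-1* and from 3.75e-45 to 1 in the wild type. The direction held in each, and the edgeR adjusted p was under 0.05 in both strains with scaling by library size and with all 24 libraries in a single fit.

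The *cry* transcript had 210 and 185 CPM in the light and a mean of 49.9 ± 3.35 CPM in the dark (SD, n = 2, from 840 and 759 reads) in Δ*ve-1* A15. Wild-type A15 had 208 and 99.9 CPM in the light and 22.9 and 7.08 CPM in the dark. Light and dark did not overlap in either strain, and replicate 1 of the wild type was above replicate 2 in both conditions. The log2 fold change was 1.94 ± 0.57 in Δ*ve-1* (SE, edgeR adjusted p = 0.261, DESeq2 0.0265) and 3.36 ± 0.60 in the wild type (edgeR 0.134, DESeq2 1.41e-06). Over its alternatives the adjusted p of *cry* ranged from 0.00172 to 1 in Δ*ve-1* and from 1.41e-06 to 1 in the wild type.

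The *wc-1* transcript had 53.5 and 45.6 CPM in the light and 36.7 and 55.9 CPM in the dark in Δ*ve-1* A15, so the groups overlapped. Wild-type A15 had 38.3 and 51.9 CPM in the light and 31 and 20.9 CPM in the dark, without overlap. Its log2 fold changes and those of *wc-2*, *nop-1*, *phy-1* and *phy-2* lay between -0.61 and 0.81 over both strains, with adjusted p of at least 0.547. The differences between the strains in the A15 light response included -1.38 ± 0.67 for *vvd* and -1.42 ± 0.78 for *cry* (SE, edgeR adjusted p = 1 for each), and ranged from -1.42 to 0.13 over the 7 genes. No gene passed (0% of 8193), 201 had an unadjusted p under 0.05, none of the 7 was among these, and DESeq2 on the same libraries called 2 genes, none of them a receptor gene. The same 16 light genes had no call in A15, with a median log2 fold change of 0.91 in Δ*ve-1* and 1.86 in the wild type, and that of all genes was -0.03 in Δ*ve-1* and 0.04 in the wild type.

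**Figure D2:**
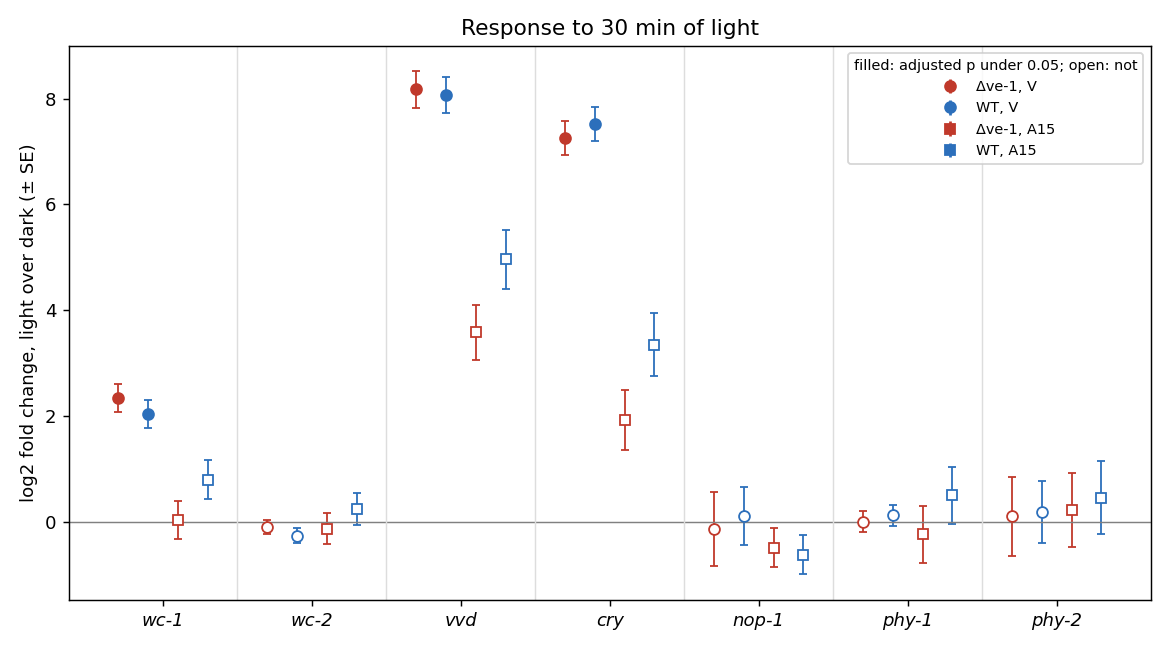
Log2 fold change of light over dark (± SE, y axis) for each gene in Δ*ve-1* (red) and the wild type (blue), in V (circles) and A15 (squares), filled where the edgeR adjusted p is under 0.05. *vvd*, *cry* and *wc-1* are filled in V, no symbol is filled in A15, and the other 4 genes lie near 0.

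The change with light was also compared between the experiments, in a fit over all 24 libraries. In Δ*ve-1*, the *vvd* response in A15 was smaller than that in V by 4.52 on the log2 scale (-4.52 ± 0.88, SE, edgeR adjusted p = 0.0284), the only receptor gene called, beside 28 of 8269 genes (0.339%). That call was lost without any of 7 of the 8 mutant V and A15 libraries in turn (adjusted p between 0.0517 and 0.248), and without the remaining library, A15 dark replicate 1, it held and *wc-1* was called as well. In the mutant, *cry* had a difference of -5.27 ± 1.48 (adjusted p = 0.212) and *wc-1* one of -2.25 ± 0.57 (adjusted p = 0.139). DESeq2 on the same libraries called *vvd* (adjusted p = 3.18e-05), *cry* (0.0129) and *wc-1* (0.00982), beside 112 genes in all (1.46%). In the wild type the differences were -3.13 ± 0.87 for *vvd* (edgeR adjusted p = 0.214), -4.19 ± 1.45 for *cry* (0.525) and -1.26 ± 0.56 for *wc-1* (0.909), so that none of the 7 was called, beside 29 of 8269 genes (0.351%). Of the 7 genes, 3 had an unadjusted p under 0.05 in the wild type, beside 419 of all 8269, and DESeq2 on the same libraries called *vvd* (adjusted p = 0.0343), beside 70 genes in all (0.834%). The dark levels of A15 and V were not tested against each other. The *cry* transcript in the dark had 49.9 ± 3.35 CPM in mutant A15 and 1.76 ± 0.361 CPM in mutant V (SD, n = 2 each), and 15 ± 11.2 CPM in wild-type A15 and 2.32 ± 1.42 CPM in wild-type V (SD, n = 2 each). For *vvd* in the dark, wild-type A15 and wild-type V overlapped, and mutant A15 was above mutant V. Of the 16 light genes, 11 in Δ*ve-1* and 7 in the wild type were called with a smaller response in A15. None was called with a larger one. The median difference of the 16 was -3.88 in Δ*ve-1* and -3.10 in the wild type, against 0.00 over all genes in each.

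The next question was how the receptors changed as aerial tissue formed in the dark. A15 dark tissue was compared with S mycelia, and the difference is called conidiation here. A15 and S also differed in age and in growth on solid against in liquid medium, and these cannot be told apart from tissue. The opsin gene *nop-1* rose in both strains and was the only receptor gene called in the wild type. In Δ*ve-1*, 6 of the 7 were called as higher, all but *wc-1*. Among them, *phy-2* entered this fit through A15 libraries, where it was higher. These counts compare with 44.3% of 8239 genes called in Δ*ve-1* and 27% in the wild type, and the wild-type share was below that of all genes. The median log2 fold change of the 7 genes was 2.26 in Δ*ve-1* and 0.66 in the wild type, and that of all genes was 0.10 in Δ*ve-1* and 0.02 in the wild type.

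The *nop-1* transcript had 115 and 89.7 CPM in Δ*ve-1* A15 and 1.53, 0.55, 0.556 and 0.214 CPM in Δ*ve-1* S. The wild type had 70.6 and 38 CPM in A15 and 0.396, 0.282, 0.836 and 0.964 CPM in S. There was no overlap, and the S values rest on 3 to 19 reads per library. The rise was 143-fold in Δ*ve-1* (log2 fold change 7.16 ± 0.57, SE, edgeR adjusted p = 3.97e-07) and 89.9-fold in the wild type (6.49 ± 0.56, adjusted p = 1.98e-06). Both calls held under every alternative run, with log2 fold changes between 6.84 and 7.86 in Δ*ve-1* and between 5.96 and 6.98 in the wild type.

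The *vvd* transcript had 14.7 and 42.7 CPM in Δ*ve-1* A15 and 3.46, 1.37, 7.71 and 6.35 CPM in Δ*ve-1* S. It was 6.04-fold higher in A15 (log2 fold change 2.59 ± 0.56, SE, edgeR adjusted p = 0.00189), but without A15 dark replicate 2 of the mutant the log2 fold change was 1.64 (adjusted p = 0.0685). Wild-type *vvd* had 8.74 and 8.73 CPM in A15 and 3.37, 3.24, 6.61 and 9.24 CPM in S, with overlap.

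The *cry* transcript had a mean of 49.9 ± 3.35 CPM in Δ*ve-1* A15 (SD, n = 2, from 840 and 759 reads) and 2.41, 1.37, 6.76 and 10.4 CPM in Δ*ve-1* S. It was 9.54-fold higher in A15 (log2 fold change 3.25 ± 0.93, SE, edgeR adjusted p = 0.0111). Wild-type *cry* had 22.9 and 7.08 CPM in A15 and 1.12, 0.916, 2.81 and 16.7 CPM in S, and the groups overlapped through S replicate 4. Its log2 fold change was 1.51 ± 0.93 (edgeR adjusted p = 0.246). Without S replicate 4 of the wild type it was 3.25 (adjusted p = 0.00759), and without A15 dark replicate 1 of the wild type it was 0.41 (adjusted p = 0.881).

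Both phytochrome genes were called as higher in A15 in Δ*ve-1*, *phy-2* from few reads. The *phy-1* transcript had 12.8 and 37.4 CPM in Δ*ve-1* A15 and 4.26, 11, 8.35 and 7.06 CPM in Δ*ve-1* S (log2 fold change 1.71 ± 0.43, SE, edgeR adjusted p = 0.00511). The value in A15 replicate 2 was the highest of *phy-1* in the series, and without it the log2 fold change was 0.75 (adjusted p = 0.241). The *phy-2* transcript had 1.75 and 0.413 CPM in Δ*ve-1* A15 and 0.321, 0.412, 0.0795 and 0.0713 CPM in Δ*ve-1* S (2.26 ± 0.75, adjusted p = 0.0241), from 6 and 31 reads in A15 and 1 to 6 reads in S. A count of 3 reads, taken as the smallest amount this depth can show, correspond to between 0.137 and 0.214 CPM, so that S replicates 3 and 4 of the mutant are under that floor. The *phy-2* gene passed the filter of this fit through A15 libraries, the tissue where it was higher, so its change is given as a description. Its call held in 8 of 13 alternatives. It was lost without A15 dark replicate 1 of the mutant (log2 fold change 0.85, adjusted p = 0.515), without mutant S replicate 3 (adjusted p = 0.0601) and without mutant S replicate 4 (adjusted p = 0.0561). In the wild type *phy-1* had 17.3 and 8.68 CPM in A15 and between 11 and 18.1 CPM in S, and *phy-2* had 0.956 and 0.924 CPM in A15 and between 0.211 and 0.912 CPM in S.

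The *wc-2* transcript had 79.6 and 79.8 CPM in Δ*ve-1* A15 and 33.7, 56.4, 43.4 and 48.1 CPM in Δ*ve-1* S. This was a 1.76-fold rise (log2 fold change 0.81 ± 0.26, SE, edgeR adjusted p = 0.022). Its call held in 9 of 13 alternatives (largest edgeR or DESeq2 adjusted p 0.126), and the losses included the fits without either A15 library. In the wild type *wc-2* had 76.7 and 65.5 CPM in A15 and between 43.8 and 72.8 CPM in S. The *wc-1* transcript had 36.7 and 55.9 CPM in Δ*ve-1* A15 and between 14.4 and 44.7 CPM in Δ*ve-1* S, and 31 and 20.9 CPM in wild-type A15 and between 25.6 and 30.9 CPM in wild-type S. The 6 genes without a call in the wild type had log2 fold changes between -0.13 and 1.51.

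The larger number of calls in the mutant was not matched by a called difference between the strains. The log2 difference of the change with conidiation, Δ*ve-1* minus wild type, was 1.93 ± 0.83 for *vvd* (SE, edgeR adjusted p = 0.353), 1.78 ± 0.63 for *phy-1* (0.285), 1.74 ± 1.37 for *cry* (0.638) and 1.56 ± 1.04 for *phy-2* (0.562). Without wild-type S replicate 4 the difference for *cry* was 0.00 (adjusted p = 1). All 7 differences were above 0, from 0.47 to 1.93, with a median of 1.56 against 0.004 over all genes. None of the 7 passed, beside 2 of 8239 genes (0.0243%). The 7 values come from the same libraries, and how many of all genes were above 0 was not counted. Of the receptor genes, *vvd* and *phy-1* had an unadjusted p under 0.05, as did 1047 genes in all, and DESeq2 on the same libraries called 188 genes, none of them a receptor gene.

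**Figure D3:**
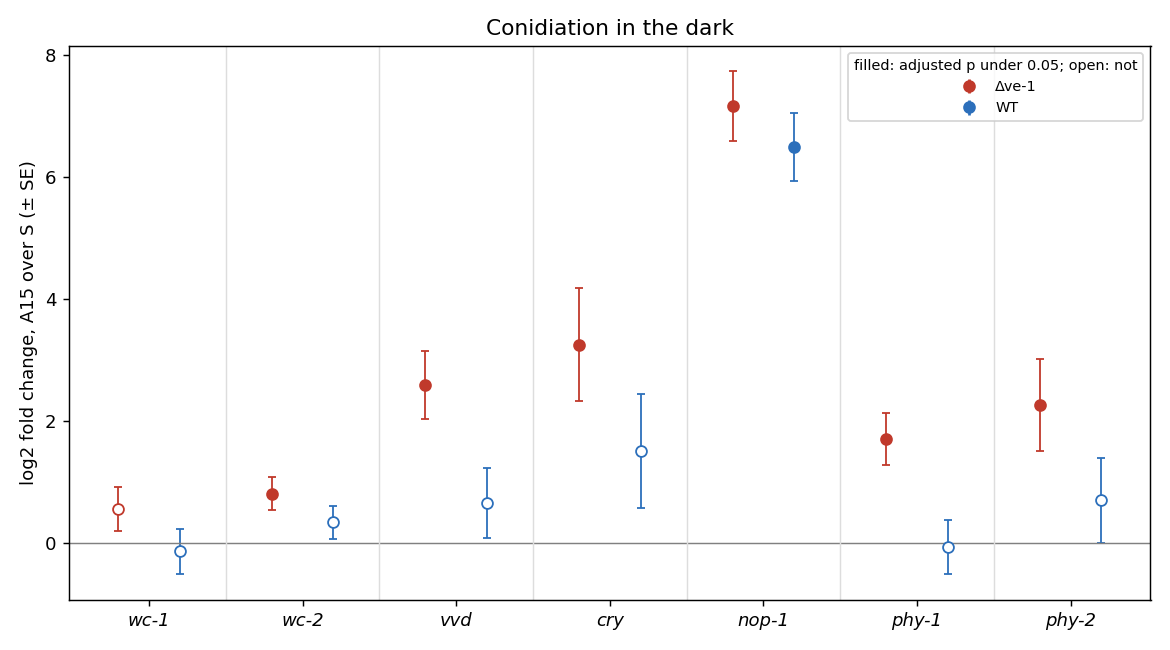
Log2 fold change of A15 dark over S dark (± SE, y axis) for each gene in Δ*ve-1* (red, left) and the wild type (blue, right), filled where the edgeR adjusted p is under 0.05. *nop-1* is filled in both strains, at 7.16 in Δ*ve-1* and 6.49 in the wild type, and *wc-2*, *vvd*, *cry*, *phy-1* and *phy-2* are filled in Δ*ve-1*.

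Of the 16 light genes, 14 were called as higher with conidiation in the dark in Δ*ve-1* and 10 in the wild type. None was called as lower. Over all 8239 genes tested, 2068 rose and 1583 fell in Δ*ve-1*, and 1445 rose and 780 fell in the wild type. The largest in Δ*ve-1* were *con-10* (8.86 ± 0.68), *con-6* (8.39 ± 0.75) and *bli-4* (8.15 ± 0.78), and in the wild type *con-6* (7.47 ± 0.73), *con-10* (7.19 ± 0.64) and *bli-4* (7.13 ± 0.77). The genes *con-6* and *con-10* are also among the 6 tissue markers, all of which rose in both strains. Of the 11 partner and kinase genes, 2 fell in Δ*ve-1*, *ckb-2* (-1.27 ± 0.44) and *cka* (-0.72 ± 0.27), for subunits of casein kinase II, and none passed in the wild type. The share of this list that fell in Δ*ve-1* was near that of all genes. Of the 9 phosphorelay genes, *hpt-1*, for a histidine phosphotransfer protein, fell in both strains (-2.65 ± 0.51 in Δ*ve-1* and -1.87 ± 0.49 in the wild type), and 4 were called as higher in Δ*ve-1* and none in the wild type, including the response regulator genes *rrg-2* (1.79 ± 0.29) and *rrg-1* (1.32 ± 0.44).

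The order of the receptors within a group, per kb of gene span, changed with stage and light. In V and S in the dark, *wc-2* was first in every group, between 11.6 and 15.9 CPM per kb, and *wc-1* second, between 3.08 and 4.89. In A15 in the dark, *nop-1* was first, at 49.4 CPM per kb in Δ*ve-1* and 26.2 in the wild type, and *wc-2* second, at 22.1 in Δ*ve-1* and 19.7 in the wild type. In the light, *vvd* was first and *cry* second in each of the 4 groups. The *vvd* level per kb in V light was 539 in Δ*ve-1* and 670 in the wild type, and in A15 light it was 109 in Δ*ve-1* and 82.4 in the wild type. The *cry* level per kb in V light was 64.6 in Δ*ve-1* and 104 in the wild type. The *phy-2* level was last in all 10 groups, between 0.0579 and 0.345 CPM per kb, and *phy-1* was between 1.18 and 3.88. Gene spans include introns, which the counts leave out, so that levels per kb are low estimates.

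**Figure D4:**
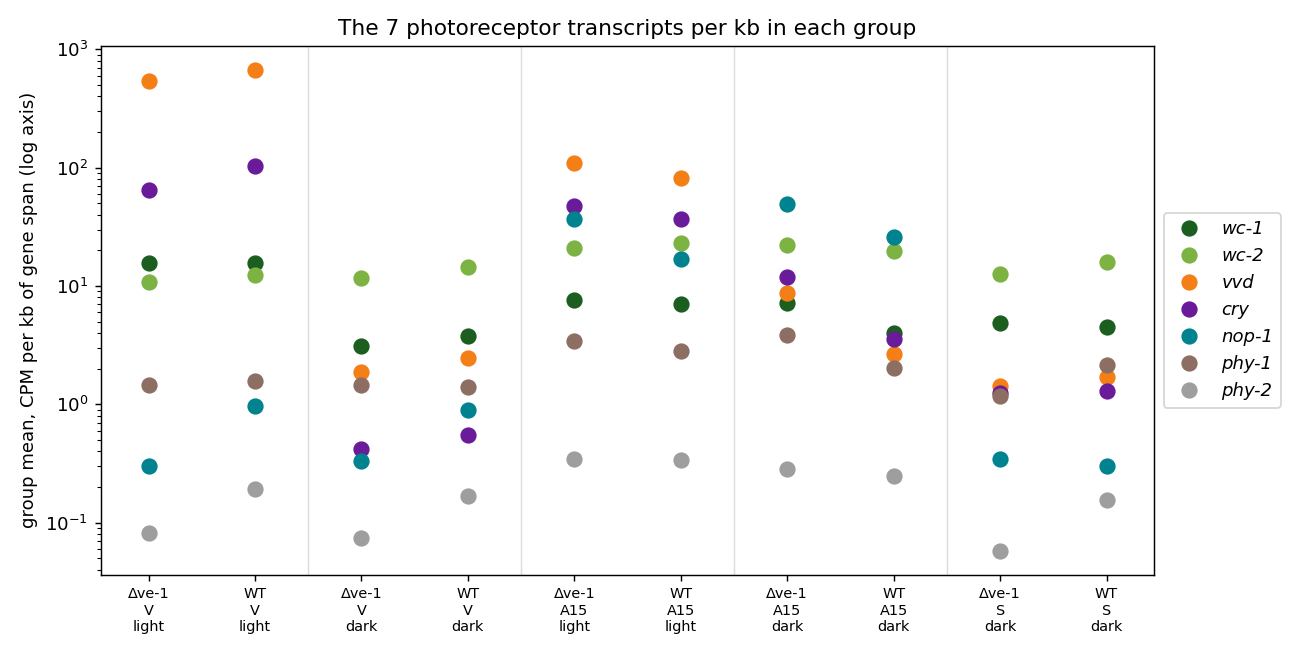
Group mean of each gene in CPM per kb of gene span (log axis), with Δ*ve-1* left of the wild type in each condition and 1 colour per gene. *vvd* and *cry* lead in the light, *nop-1* leads in A15 dark, *wc-2* leads in V dark and S dark, and *phy-2* is lowest throughout.

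Each gene had its own order over the 10 groups. For *wc-1* both V light groups stood above all others, with a mean of 101 CPM in each strain, and from mutant A15 light (49.6 CPM) down to mutant V dark (19.9 CPM) each group overlapped the next. For *wc-2* the means ran from 84.1 CPM in wild-type A15 light to 39 CPM in mutant V light. The 4 A15 groups held the first 4 places, but neighbours overlapped from second place to ninth. For *vvd*, wild-type V light (2198 CPM) was followed by mutant V light (1768), mutant A15 light (357), wild-type A15 light (270) and mutant A15 dark (28.7), all apart from each other, and the 5 remaining dark groups, from 8.73 to 4.72 CPM, overlapped their neighbours. For *cry*, wild-type V light (438 CPM) and mutant V light (271) stood apart, mutant A15 light (197) and wild-type A15 light (154) overlapped, mutant A15 dark (49.9) stood apart, and the other 5 groups, from 15 to 1.76 CPM, overlapped their neighbours. For *nop-1* the A15 groups came first, with mutant A15 dark (103 CPM) above mutant A15 light (75.7), wild-type A15 dark (54.3) overlapping wild-type A15 light (35.4), and every V and S group at or below 2.01 CPM. For *phy-1* the means ran from 25.1 CPM in mutant A15 dark to 7.67 CPM in mutant S, with a gap only below wild-type V light (10.1). For *phy-2* they ran from 1.32 CPM in mutant A15 light to 0.221 CPM in mutant S, with a gap only below wild-type A15 dark (0.94).

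Finally, the strains were compared directly in each condition. With 1 mean fitted per group, edgeR called no receptor gene between Δ*ve-1* and the wild type in any of the 5 comparisons. The shares of all genes called were 10.3% in V light and 9.79% in V dark of 7760 genes, 4.65% in A15 light and 3.08% in A15 dark of 8193 genes, and 0.655% in S of 8239 genes. At an unadjusted p under 0.05 there were 2 receptor genes in V light, 2 in V dark, 1 in A15 light, 3 in A15 dark and 1 in S. Over all genes tested there were 1976 in V light, 2041 in V dark, 1744 in A15 light, 1560 in A15 dark and 1397 in S. DESeq2 on the same libraries called *cry* in V light, beside 11.2% of all genes with an adjusted p, and *vvd* and *cry* in A15 dark, beside 9.35%, and no receptor gene in V dark, A15 light or S.

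In V, *nop-1* had 0.922 and 0.338 CPM in Δ*ve-1* in the light and 1.12 and 2.91 CPM in the wild type in the light. In V dark it had 0.601 and 0.767 CPM in Δ*ve-1* and the wild type had 1.22 and 2.49 CPM. The strains did not overlap in either condition, at between 6 and 44 reads per library. With 2 libraries per group, groups can stay apart at a small change, as *wc-2* did in A15 dark (log2 fold change 0.15 ± 0.30, SE). How many of all genes stayed apart was not counted, so a lack of overlap is given as a description. The log2 fold change was -1.65 ± 0.62 in the light (SE, edgeR adjusted p = 0.134) and -1.41 ± 0.61 in the dark (adjusted p = 0.183). In A15 *nop-1* had 77.1 and 74.3 CPM in Δ*ve-1* and 30.7 and 40 CPM in the wild type in the light, again without overlap but with Δ*ve-1* above (log2 fold change 1.03 ± 0.38, adjusted p = 0.157).

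The *phy-2* transcript in V had 0.115 and 0.507 CPM in Δ*ve-1* and 0.62 and 0.861 CPM in the wild type under light. In V dark it had 0.18 and 0.384 CPM in Δ*ve-1* and 0.525 and 0.761 CPM in the wild type. Its log2 fold change was -1.21 ± 0.65 in V light (SE, edgeR adjusted p = 0.288), -1.12 ± 0.66 in V dark (0.324) and -1.37 ± 0.69 in S (0.329), where the groups overlapped. These libraries had between 1 and 13 reads of *phy-2*. The gene entered the V fit only through the wild-type libraries, where it was higher, so its strain differences in V are given as a description.

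In A15 dark, *vvd* and *cry* each had higher values in both mutant libraries than in either wild-type library. The same held for *wc-1*, *wc-2* and *nop-1*, whereas the strains overlapped for *phy-1* and *phy-2*. The log2 fold change was 1.72 ± 0.48 for *vvd* (SE, edgeR adjusted p = 0.097) and 1.71 ± 0.57 for *cry* (adjusted p = 0.143). DESeq2 on the same libraries called both, with an adjusted p of 0.013 for *vvd* and 0.0315 for *cry*, but neither was called when DESeq2 was given these 4 libraries alone (0.0769 for *vvd* and 0.074 for *cry*). Over the alternatives, the log2 fold change of *vvd* lay between 0.71 and 2.28 (adjusted p between 0.0122 and 0.594) and that of *cry* between 1.10 and 2.82 (adjusted p between 0.0315 and 0.719). All 7 genes had log2 fold changes above 0 in A15 dark, from 0.15 to 1.72, with a median of 0.90 against 0.07 over all genes. How many of all genes were above 0 there, or stayed apart between the strains, was not counted. The 7 values come from the same libraries, which also enter the strain difference with conidiation. In A15 light the median of the 7 was 0.21, in S it was -0.26, in V light -0.30 and in V dark -0.41.

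The *cry* difference in V light, singled out after its values were seen, had a log2 fold change of -0.68 ± 0.23 (SE, edgeR adjusted p = 0.0969), and DESeq2 on the same libraries gave a log2 fold change of -0.69 (adjusted p = 0.0042). The other log2 fold changes between the strains lay between -0.87 and 0.94. For the genes of the WCC, the log2 fold change of *wc-1* was 0.00 ± 0.25 in V light, and those of *wc-2* lay between -0.35 and 0.15 over the 5 conditions. Of the 16 light genes, 5 were called as lower in Δ*ve-1* in V light, among them *con-10* (-2.58 ± 0.61) and *bli-4* (-1.72 ± 0.37). In V dark 2 were, *bli-3* (-2.70 ± 0.56) and *al-2*, for phytoene synthase (-1.37 ± 0.16). In A15 light 1 was, the transcription factor gene *adv-1* (-2.28 ± 0.48). Over all genes tested, 456 of 7760 were called as lower in V light, 487 of 7760 in V dark and 238 of 8193 in A15 light. None of the 16 was called in A15 dark or S, and none was called as higher. No gene of the partner and kinase list or of the phosphorelay list was called between the strains in any condition.

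**Figure D5:**
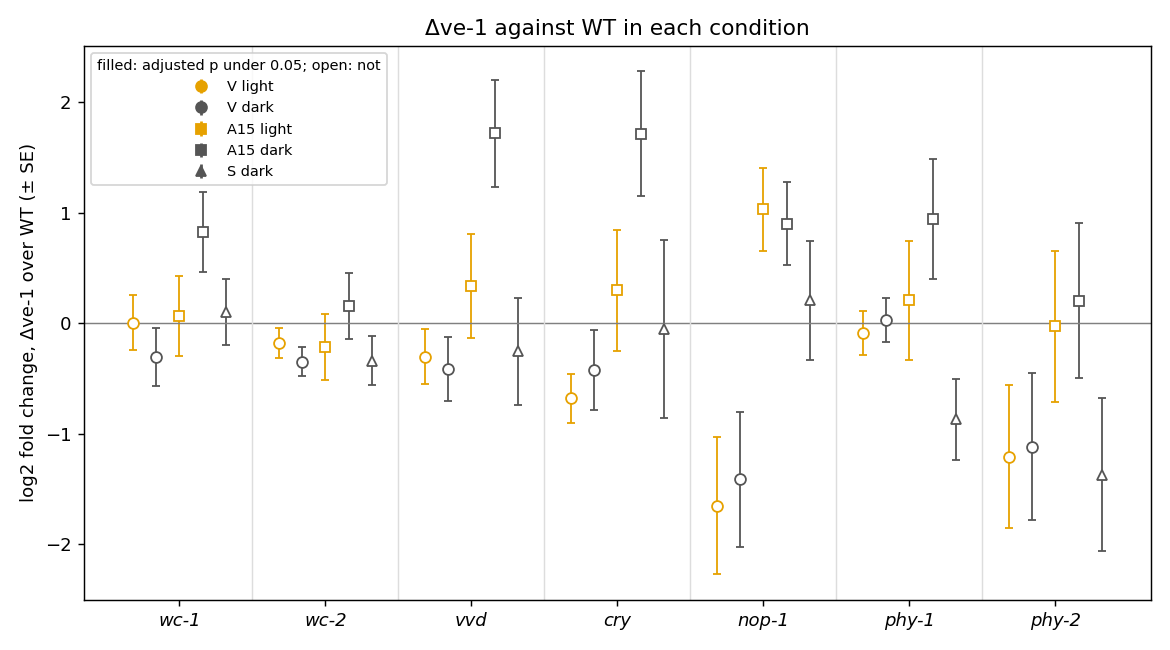
Log2 fold change of Δ*ve-1* over the wild type (± SE, y axis) for each gene in V light and V dark (circles), A15 light and A15 dark (squares) and S dark (triangles), with light in yellow and dark in grey. Every symbol is open, since no adjusted p was under 0.05, and the values run from -1.65 (*nop-1*, V light) to 1.72 (*vvd*, A15 dark).

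The genes with the most similar pattern to each receptor over the 24 libraries were sought among 8257 genes by the Pearson correlation of log2 CPM. These libraries share light and stage, so that r is given as a description. For *vvd* they were *al-2* (r = 0.96), *phr*, for a photolyase (0.95), and *crf5-1* (0.95), and for *cry* they were NCU02190 (0.95), *crf5-1* (0.94) and *phr* (0.94). For *wc-1* they were the clock gene *frq* (0.90), *os-4* (0.89) and NCU04851 (0.88). For *nop-1* they were NCU07934 (0.98), NCU16363 (0.97) and NCU04431 (0.97). For *wc-2* they were NCU02957, NCU02082 and NCU04194 (0.89 each), for *phy-1* *stk-5*, NCU06281 (0.86 each) and NCU09887 (0.85), and for *phy-2* NCU00450 (0.84), NCU07234 (0.83) and NCU06146 (0.83). Among the receptors, *vvd* and *cry* had an r of 0.93, *vvd* and *wc-1* 0.85, *cry* and *wc-1* 0.82, *wc-2* and *nop-1* 0.74 and *wc-2* and *phy-1* 0.73, whereas *wc-1* and *wc-2* had an r of 0.05 (24 libraries each).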

How the data were processed

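The authors mapped single-end reads to the NC12 assembly with TopHat2 2.11 and counted reads over exons of merged transcripts with SeqMonk, assuming opposing-strand specificity. The deposited values are raw read counts for 9758 genes in 24 libraries, without normalization. All proved to be whole numbers, and no read was mapped again here. Symbols came from a RefSeq gene table, which held 9757 of the 9758 counted genes, gave a symbol to 1118 of them and matched all 7 receptor genes. Sequences were not used here. Groups came from the sample labels. The members, lists and tests were chosen with earlier results of these data known.

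The tests used R 4.3.3 with limma 3.58.1 and edgeR 4.0.16: TMM scaling, filterByExpr at a minimum count of 10, 1 mean per group, the quasi-likelihood F test and Benjamini-Hochberg adjustment over all genes tested. V (8 libraries), A15 (8), S with A15 (16) and all libraries (24, for light by experiment) were fitted separately. The dispersion was shared within a fit, since most groups hold 2 libraries and only the S groups hold 4. SEs are the log2 fold change divided by the square root of F. A log2 fold change is printed with its test where the adjusted p was under 0.05 or its size at least 1, and the rest by range. Log CPM used a prior count of 2. Alternatives were RLE normalization, library size only, no filter, DESeq2 1.42.0, all libraries in 1 fit, a replicate block, each library left out, and the threshold of the study (a log2 fold change of 2 and an adjusted p of 0.001). The scripts were tested on simulated data. The labels call the libraries replicates, and replicates of a group differed by more than counting noise (chi-square per gene from 23.2 to 718), so floors cover counting error only.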

Additional observations from a re-analysis of the deposited data

Results flagged for a closer look

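The *cry* level of 16.7 CPM in wild-type S replicate 4 stood far from the other 3 libraries of its group (0.916 to 2.81 CPM). By Dixon's ratio, about 1 in 20 groups would be picked out by chance, and 14 groups of 4 libraries were examined (7 genes in each strain). The *vvd* level was also highest of its group in that library, at 9.24 CPM, and without that library *cry* passed the test for conidiation in the wild type (log2 fold change 3.25, edgeR adjusted p = 0.00759).

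The *vvd* response to light differed between the experiments in Δ*ve-1*, by -4.52 on the log2 scale (A15 minus V, edgeR adjusted p = 0.0284). All 4 light libraries of the mutant were above all 4 dark libraries, and the response was smaller in A15. The mutant light level was 350 and 364 CPM in A15, against 1904 and 1633 CPM in V, and its dark level was 14.7 and 42.7 CPM in A15, against 5.95 and 6.38 CPM in V. The wild-type light level was 270 and 271 CPM in A15, against 2309 and 2087 CPM in V, and its dark level was 8.74 and 8.73 CPM in A15, against 10.9 and 5.33 CPM in V. The same difference in the wild type was -3.13 (adjusted p = 0.214), and whether the strains differ in it was not tested.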

How the results depend on the processing

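No called log2 fold change of a receptor gene changed sign under any alternative, and the V light calls held under each. Counts of receptor genes called are given here. For the A15 light response, the count of 0 became 1 in each strain with library size only and with all 24 libraries in 1 fit, 1 in the wild type with no filter, and 2 in each strain with DESeq2, on the same libraries or on only the groups compared. Leaving out 1 library gave between 0 and 1 in each strain. For conidiation in the dark, the wild-type count of 1 became 3 with the replicate block and between 1 and 2 without 1 library (2 without S replicate 4). The mutant count of 6 became 1 at the threshold of the study and between 3 and 6 without 1 library (lowest without A15 dark replicate 2). The *wc-2* call of the mutant also failed to hold where all libraries were kept (edgeR or DESeq2 adjusted p up to 0.126). Between the strains, the count of 0 became 2 in V dark (*wc-2*, *nop-1*) and 2 in V light (*cry*, *nop-1*) with the replicate block, 1 in V light with either form of DESeq2 and between 0 and 1 without 1 library (1 without wild-type V light replicate 1), 2 in A15 dark with DESeq2 on the same libraries and between 0 and 2 without 1 library (2, *vvd* and *phy-1*, without mutant A15 dark replicate 1), and 1 in A15 light with DESeq2 on only the groups compared. For light by experiment, the wild-type count of 0 became 2 with the replicate block, 1 with DESeq2 on the same libraries and 2 with DESeq2 on only the groups compared. The mutant count of 1 became 0 at the threshold of the study, 2 with the replicate block, 3 with either form of DESeq2 and between 0 and 2 without 1 library. The cause of these changes was not tested, apart from the study's stricter threshold.

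Same-numbered libraries deviated together in V (r 0.363 to 0.476). For A15 the r lay between -0.227 and 0.177, and for S between -0.386 and 0.65, where 1 of 4 libraries correlated best with its own number. The labels do not say that a number marks a shared batch, and V and A15 hold only 2 pairs, so the title numbers were not taken as pairs. Over all genes the replicate block raised the V light calls to 1833 in Δ*ve-1* (994 without it) and 2025 in the wild type (1193 without it). With the numbers of the wild-type A15 light libraries exchanged, 0 genes were called for light, as without the block. Library size only moved the median log2 fold change of all genes to 0.36 (Δ*ve-1*) and 0.44 (wild type) for conidiation, and to 0.22 (Δ*ve-1*) and 0.18 (wild type) for A15 light. On that scaling *wc-1* and *phy-1* in wild-type conidiation were at 0.32 and 0.42, below that median, against -0.13 and -0.07 with TMM. Group mean levels with library size only were between 0.816 and 1.41 times those with TMM, and 26 of 70 moved by more than 1 SD. With 1 library left in a group, its spread was assumed to be that of the others. Having 2 libraries per group and the few reads of *phy-2* and of *nop-1* outside A15 limit the precision.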
